A study of Mus musculus with 21 samples.

Results

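The comparison described here set alert muscle stem cells against quiescent ones in wild-type mice. The alert cells, called WT CSC (contralateral satellite cells), were sorted from the hindlimb opposite one that had been injured with barium chloride 2.5 days earlier. The quiescent cells, called WT QSC (quiescent satellite cells), were sorted from hindlimbs of noninjured mice. Both groups carried the alleles Pax7CreER/+ and Rosa26REYFP/+ on a mixed C57BL6 background and no conditional knockout allele, were 3 to 5 months old, and had received tamoxifen at least 2 weeks before. The Cre was driven by Pax7, so that YFP marks cells that expressed this gene at the time of tamoxifen and their descendants, whatever they later became. RNA was taken right after the sort for YFP, with 100 ng going to each Affymetrix Mouse Gene 1.0 ST array. Each sample was a pool of cells from 3 to 4 mice, so that no value belongs to a single animal. The groups were chosen by their labels alone: 9 of the 21 arrays of the series, which hold 6 of its 12 pools. WT CSC had 3 pools on 4 arrays and WT QSC had 3 pools on 5 arrays. Conditional knockouts and a later time point make up the rest of the series. They enter here through mean signals over all 12 pools, which set the filter on dim genes, the probeset chosen and the level groups.

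Satellite cells are the stem cells of skeletal muscle, lie between the fibre and its basement membrane, and rest outside the cell cycle until the muscle is injured. Quiescence is an active state, held by Notch signalling, by adhesion to the niche and by inhibitors of cyclin-dependent kinases. Stem cells far from an injury can enter an alert state, in which they are larger and metabolically more active and divide sooner once called upon. The comparison asks what that state looks like in RNA.

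Every value below is a log2 signal and every difference is WT CSC minus WT QSC on that scale with its standard error (SE). A gene passed when its adjusted p was under 0.05 (limma, Benjamini-Hochberg over all 13956 genes tested). The 3 pools a group limit the precision, with a median SE of 0.154. WT CSC pools 2 and 3, with 1 array each, correlated at 0.9935, about as closely as the 2 arrays of WT QSC pool 1 did (0.994) and more closely than the 2 arrays of WT CSC pool 1 (0.9784). Different WT QSC pools correlated at 0.9659 to 0.9718. The labels name those 2 WT CSC pools as separate, and they are used as such, with counts that treat them as 1 sample beside the main ones. The SD of a gene among the 3 pools had a median of 0.131 in WT CSC and of 0.207 in WT QSC. In bulk samples such as these, fewer cells of a type and less RNA per cell cannot be told apart.

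The sort held satellite cells by their markers in both groups, and RNA of other cell types was present in both. Pax7, which defines satellite cells, measured 10.63, 10.36 and 10.26 in the WT CSC pools, against 12.1, 11.3 and 11.09 in the WT QSC pools. Of 20 satellite cell markers 8 were lower and 0 higher in WT CSC (4, 3 and 3 lower without WT CSC pool 1, 2 and 3). Their mean signal was 10.65 to 10.75 in WT CSC, against 11.09 to 11.48 in WT QSC. Vcam1, Des and Sdc4 of this list stood above 11 in every pool, and so did Myod1, which is not in it. Of 16 endothelial markers 12 were lower in WT CSC, and their mean signal was 7.77 to 8.21 in WT CSC, against 8.77 to 9.48 in WT QSC. Pecam1, their defining marker, measured 7.72, 8.15 and 7.89 in the WT CSC pools, against 9.32, 8.95 and 9.57 in the WT QSC pools. Of 10 pericyte and smooth muscle markers tested 7 were lower (4, 4 and 3 without WT CSC pool 1, 2 and 3), of 12 markers of fibro-adipogenic progenitors 6 (3 without WT CSC pool 1 or 3), and of 6 tendon markers 4, while the tendon factor Scx was higher (1.31 ± 0.13). Rgs5, a pericyte gene, measured 7.71, 7.87 and 7.97 in the WT CSC pools, against 9.49, 8.77 and 9.87 in the WT QSC pools. Of 4 Schwann cell markers tested Ngfr and Erbb3 were higher (1 of them without WT QSC pool 2 or 3 or any 1 WT CSC pool), and Sox10, which defines these cells, did not pass (-0.25 ± 0.13, adjusted p = 0.234). None of 11 macrophage markers passed, and no marker of lymphocytes (3 tested), neutrophils (2), adipocytes (3) or erythroid cells (1) did. Mature muscle fibre markers were higher for 5 of 12 (3 without WT QSC pool 1, 2 without WT CSC pool 1, 3 without WT CSC pool 2), with means of 8.51 to 8.97 in WT CSC, against 7.55 to 8.59 in WT QSC, so that these groups overlapped. An array gives no true zero, so that none of these markers can be called absent. The part of these other cells in the results below was not tested.

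The difference was broad and mostly moderate in size. Of 13956 genes, 2510 passed (18.0%), of which 1483 were higher (10.6%) and 1027 lower (7.36%) in WT CSC. With WT CSC pools 2 and 3 as 1 sample, 856 genes were higher (6.13%) and 374 lower (2.68%). Those that passed in each of the 6 fits that leave out 1 pool numbered 744 higher (5.33%) and 277 lower (1.98%). The 3 WT CSC pools all lay above the 3 WT QSC pools for 2613 genes (18.7%) and all below for 2671 (19.1%). Rises were the larger: 480 genes rose by more than 2-fold and 41 by more than 4-fold, against 204 that fell by more than 2-fold and 0 by more than 4-fold. Higher genes made up 59.1% of all calls, and 42.8% when each pool was centred on the tested genes, so that the balance of rises and falls depends on the scaling. The median gene differed by -0.05.

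Fewer dim genes passed than bright ones. When the genes were split into 4 equal groups by mean signal, 5.3% of the dimmest group were higher and 3.04% lower, then 11.6% and 6.02%, then 15.2% and 8.14%. In the brightest group more were lower (12.2%) than higher (10.4%). For 4946 genes (35.4%) the 95% interval of the difference lay within 0.5 on either side of 0, and 0 of them passed. Another 6500 genes did not pass and had intervals that reach beyond 0.5 on at least 1 side, so that a change of this size cannot be set aside for them.

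**Figure D1:**
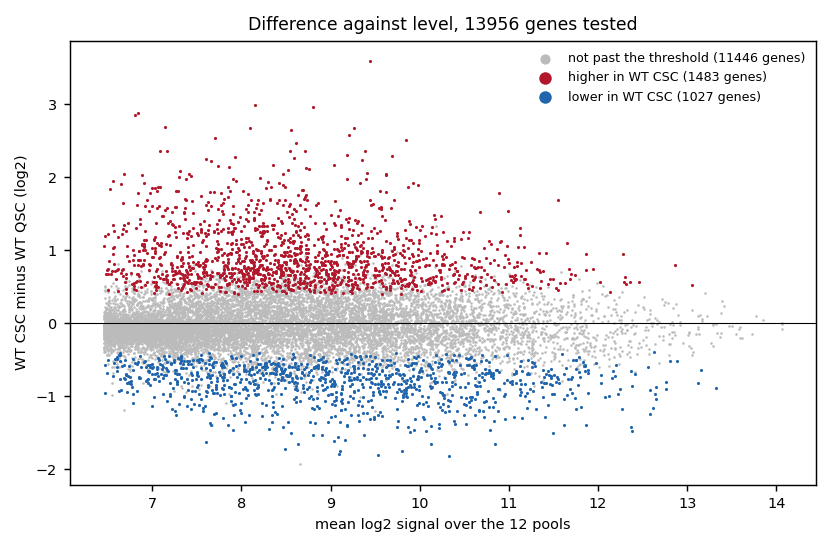
Difference (WT CSC minus WT QSC, log2) against mean log2 signal over the 12 pools of the series, 1 point a gene. Red points are the 1483 genes higher in WT CSC, blue points the 1027 lower, grey points genes that did not pass; the red points reach farther from 0 than the blue.

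Grouped by function, rises gathered in the machinery of division, gene expression and mitochondria, and falls in signalling, adhesion and early response genes. The lists and families were written with earlier results of these data known, so their counts describe the response and are no independent evidence for it. They hold 884 of the 2510 genes that passed, and 1626 lie in none. Members that are named without a value of each pool were in part picked after their values were seen. Genes that passed and have a value of each pool were, a panel apart, taken only if their groups did not overlap. For them a gap between the groups was required and is no result.

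**Figure D2:**
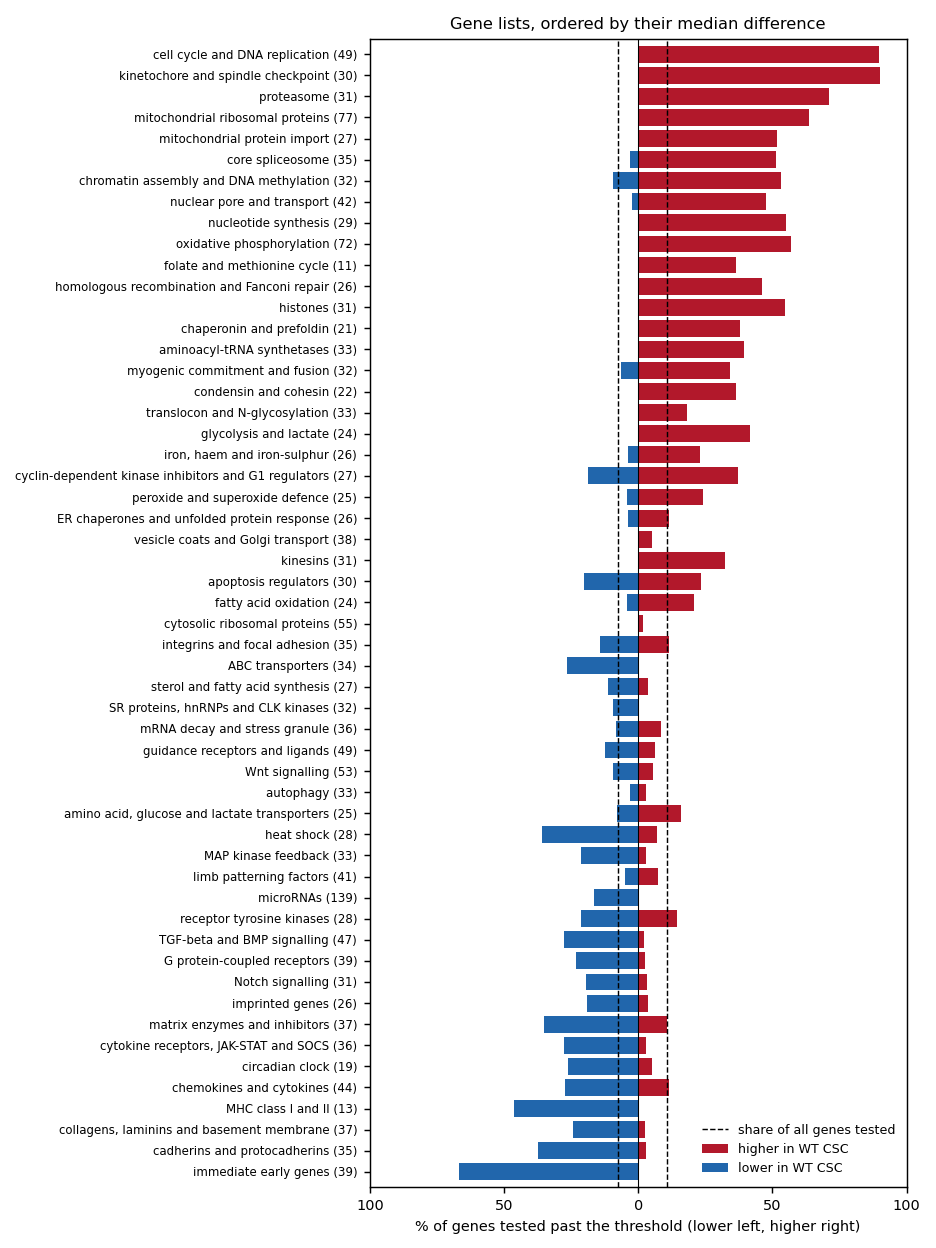
Share of tested genes in each list that passed, lower in WT CSC to the left (blue) and higher to the right (red), with the number tested in brackets. Dashed lines mark the shares over all genes, 7.36% lower and 10.6% higher, and some lists, markers among them, are not drawn. Among the lists drawn the cell cycle and kinetochore lists reach farthest right, and immediate early genes farthest left.

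With WT CSC pools 2 and 3 as 1 sample the counts of genes that passed were smaller in most lists. Rises then numbered 27 of 30 for the kinetochore, 14 of 29 for nucleotide synthesis, 12 of 32 for chromatin assembly, 13 of 42 for the nuclear pore, 9 of 35 for the spliceosome, 16 of 31 for the proteasome, 24 of 72 for oxidative phosphorylation, 34 of 77 for the mitochondrial ribosome and 11 of 32 for myogenic genes. Falls numbered 22 of 39 for immediate early genes, 10 of 16 for endothelial markers, 8 of 47 for TGF-beta and BMP signalling, 4 of 20 for satellite cell markers, 5 of 139 for microRNAs and 1 of 35 for cadherins.

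Genes of mitosis rose together in WT CSC. In the list of 30 kinetochore and spindle checkpoint genes 27 rose and 0 fell, and 26 rose in each of the 6 fits without 1 pool, with a median of 1.34 against -0.05 over all genes. Bub1, a kinase of the spindle checkpoint, measured 9.35, 9.31 and 9.43 in the WT CSC pools, against 6.97, 7.44 and 6.92 in the WT QSC pools, a difference of 2.25 ± 0.16 (adjusted p = 0.000133). Bub1b, its partner BubR1, measured 9.54, 9.23 and 9.19 in the WT CSC pools, against 7.1, 7.01 and 7.39 in the WT QSC pools (2.15 ± 0.16, adjusted p = 0.000133). Cdca8, or borealin, which places the Aurora B kinase on centromeres, measured 8.83, 8.95 and 8.73 in the WT CSC pools, against 6.74, 6.51 and 7.12 in the WT QSC pools (2.04 ± 0.17, adjusted p = 0.000237). For each of the 3 the groups did not overlap, as the rule for naming them required. Sgo2a, a shugoshin that guards centromeric cohesion, rose by 1.58 ± 0.12 (adjusted p = 0.000133). Zwint, a kinetochore linker, differed by 0.53 ± 0.17 and did not pass (adjusted p = 0.059).

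Condensins compact mitotic chromosomes, and cohesins hold sister chromatids together. Of 22 genes of both 8 rose and 0 fell (median 0.33), all 8 in each fit without 1 pool. The condensin subunits Smc2 (1.62 ± 0.14), Ncapg (1.81 ± 0.14) and Ncapd2 (1.83 ± 0.2) rose, and so did Esco2 (1.68 ± 0.15), which acetylates cohesin in S phase. Rad21, the cohesin ring subunit, measured 11.2, 11.09 and 11.13 in the WT CSC pools, against 10.92, 10.92 and 10.8 in the WT QSC pools and did not pass (0.26 ± 0.12, adjusted p = 0.171). Nipbl, the cohesin loader, did not pass either (-0.37 ± 0.17, adjusted p = 0.167). Of 31 kinesins 10 rose and 0 fell, among them Kif2c (2.04 ± 0.14) and Kif15 (1.85 ± 0.13), which act on mitotic microtubules. Kif11, the motor that separates spindle poles, measured 9.76, 9.75 and 9.67 in the WT CSC pools, against 7.82, 7.89 and 7.87 in the WT QSC pools (1.87 ± 0.12, adjusted p = 9.94e-05). Of 19 tubulins 4 rose (2 without WT CSC pool 3), among them Tubb5 (1.69 ± 0.17) and Tubg1, the gamma-tubulin of centrosomes (1.98 ± 0.24). Foxm1, the forkhead factor that drives mitotic genes, measured 9.54, 9.33 and 9.25 in the WT CSC pools, against 7.86, 6.97 and 7.97 in the WT QSC pools (1.77 ± 0.25, adjusted p = 0.00212). Fbxo5, or Emi1, which restrains the anaphase-promoting complex until mitosis, rose by 2.02 ± 0.15 (adjusted p = 0.000133).

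Promoters of these genes share letters that are known from cell cycle control, shown here because the genes moved together. Each window runs from 250 bases before to 50 after the gene start in RefSeq (GRCm38.p6), and 11009 of the 13956 genes have one or more. The cell cycle homology region (CHR) was searched as TTTGAA or TTCGAA, the CCAAT box as CCAAT and the E2F site as TTTGGCGC, TTTGGCGG, TTTCCCGC or TTTCCCGG, on both strands, with motifs free to overlap. A CHR stood in 60.7% of windows of kinetochore genes and 46.7% of those of cell cycle and DNA replication genes, against 13.8% of all windows. CCAAT stood in 71.4% and 60%, against 36.6%. E2F letters stood in 10.7% of kinetochore windows (3 of 28) and 31.1% of cell cycle windows (14 of 45), against 5.27%. Over all 1458 windows of higher genes the CHR share was 19.8%, and over the 1003 windows of lower genes 13.5%. A match is a description and not a site. The windows of Kif11 (chr19:37376132-37376431, plus strand) and Bub1 (chr2:127831810-127832109, minus strand) hold both a CHR and CCAAT, on either strand, in capitals:
Kif11: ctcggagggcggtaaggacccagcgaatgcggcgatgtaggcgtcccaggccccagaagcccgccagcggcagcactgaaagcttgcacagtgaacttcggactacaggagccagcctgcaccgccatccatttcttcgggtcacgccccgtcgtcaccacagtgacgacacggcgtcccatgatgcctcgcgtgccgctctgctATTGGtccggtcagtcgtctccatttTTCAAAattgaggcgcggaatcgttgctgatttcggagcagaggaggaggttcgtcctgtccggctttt
Bub1: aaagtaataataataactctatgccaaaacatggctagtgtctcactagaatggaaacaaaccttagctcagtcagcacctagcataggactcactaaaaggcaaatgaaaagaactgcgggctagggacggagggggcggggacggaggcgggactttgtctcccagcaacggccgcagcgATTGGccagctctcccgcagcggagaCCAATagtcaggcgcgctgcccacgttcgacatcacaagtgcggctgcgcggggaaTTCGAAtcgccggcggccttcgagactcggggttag

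DNA replication and the supply of its building blocks rose as well. Of 49 cell cycle and DNA replication genes 44 rose and 0 fell (median 1.42; 41 with WT CSC pools 2 and 3 as 1 sample). All 7 tested MCM helicase genes were among them, with a median of 1.69. Anln, or anillin, of the cleavage furrow, measured 10.54, 10.4 and 10.41 in the WT CSC pools, against 8.06, 7.93 and 7.94 in the WT QSC pools (2.47 ± 0.12, adjusted p = 3.53e-05). The 5 that did not pass were Orc6, Pcna, Rfc4, Pola1 and Cdk2, all with differences above 0. Pcna, the replication clamp, was bright in both groups, at 11.82, 12.14 and 12.22 in the WT CSC pools, against 11.68, 12.08 and 11.52 in the WT QSC pools (adjusted p = 0.291).

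Nucleotide synthesis gave 16 higher and 0 lower of 29 (median 0.57). Tyms, which makes thymidylate, measured 9.67, 8.89 and 9.08 in the WT CSC pools, against 7.24, 7.07 and 7.39 in the WT QSC pools (1.98 ± 0.2, adjusted p = 0.000475). Rrm1, the large subunit of ribonucleotide reductase, measured 11.17, 11.33 and 11.44 in the WT CSC pools, against 10.39, 10.14 and 9.9 in the WT QSC pools (1.17 ± 0.16, adjusted p = 0.00175). Neither overlapped between groups, as the rule for naming them required. Tk1, thymidine kinase, rose by 1.35 ± 0.16, and Dctpp1, which clears dCTP, by 1.33 ± 0.13. Paics of purine synthesis, at a higher level, differed by 0.41 ± 0.14 and did not pass (adjusted p = 0.0701). In the folate and methionine cycle 4 of 11 rose, and 2 without WT QSC pool 2, WT CSC pool 2 or WT CSC pool 3. The 4 were the mitochondrial enzymes Shmt2 (1.43 ± 0.24) and Mthfd1l (1.19 ± 0.16), with Mthfd1 and Mat2b. In homologous recombination and Fanconi repair 12 of 26 rose and 0 fell (median 0.52), with Exo1, a resecting nuclease, at 1.35 ± 0.15, Brca1 at 1.3 ± 0.14, the checkpoint kinase Chek1 at 1.25 ± 0.15 and Rad54l at 1.14 ± 0.13. Atr, a kinase that signals replication stress, did not pass (0.2 ± 0.14, adjusted p = 0.372).

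Chromatin assembly was higher, with a split inside the list. Of 32 genes 17 rose and 3 fell (median 0.58). Asf1b, a histone H3 and H4 chaperone, measured 10.1, 9.83 and 9.94 in the WT CSC pools, against 7.79, 7.69 and 7.87 in the WT QSC pools (2.17 ± 0.13, adjusted p = 9.92e-05). Uhrf1, which brings DNA methylation to new strands, measured 9.01, 8.62 and 8.65 in the WT CSC pools, against 6.91, 6.4 and 6.73 in the WT QSC pools (2.08 ± 0.17, adjusted p = 0.000233). Hells, a remodeller, measured 8.01, 8.29 and 8.04 in the WT CSC pools, against 5.96, 6.11 and 6.14 in the WT QSC pools (2.04 ± 0.13, adjusted p = 0.000105). For all 3 the groups did not overlap, as the rule for naming them required. Chaf1b of the replication-coupled assembly factor CAF-1 rose by 1.8 ± 0.15. The 3 that fell were the methylcytosine oxidases Tet1 (-0.74) and Tet2 (-0.68) and the histone methyltransferase Ezh1 (-0.60), and none of these calls held in every fit without 1 pool. Tet2 missed the threshold in the fits that left out WT CSC pool 1 (adjusted p = 0.061) and pool 3 (0.0773). Tet1 missed it in the fits that left out WT QSC pool 1 (0.106), WT QSC pool 2 (0.0974), WT CSC pool 1 (0.0515), pool 2 (0.148) and pool 3 (0.141). Ezh1 missed it in the same 5 fits (0.0906, 0.0657, 0.0807, 0.117 and 0.161, in that order). Rbbp7, a histone-binding subunit of several chromatin complexes, did not pass (0.12 ± 0.15, adjusted p = 0.627).

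Histone genes rose as well. Of 31 tested 17 rose and 0 fell (median 0.52), and 12 rose in each fit without 1 pool. H1f5, a linker histone, measured 10.92, 11.13 and 11.45 in the WT CSC pools, against 8.52, 8.2 and 9.04 in the WT QSC pools (2.58 ± 0.22, adjusted p = 0.000245). H2bc14 measured 10.88, 10.82 and 11.01 in the WT CSC pools, against 9.64, 8.75 and 8.92 in the WT QSC pools (1.8 ± 0.22, adjusted p = 0.00104), and H2ac15 measured 11.78, 11.87 and 11.96 in the WT CSC pools, against 10.36, 10.17 and 10.51 in the WT QSC pools (1.52 ± 0.14, adjusted p = 0.000288). Histone genes of a family are near copies of each other, and probesets may share their signal. H2az1, a histone variant that is not tied to replication, stood at 12.09, 11.98 and 12.09 in WT CSC, against 10.92, 11.21 and 11.14 in WT QSC (adjusted p = 0.00188).

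Regulators of the G1 phase did not move as 1 block. Of 27 inhibitors and G1 regulators 10 rose and 5 fell. Cdk6, a G1 kinase that pairs with D cyclins, measured 11.09, 10.59 and 10.51 in the WT CSC pools, against 8.47, 8.29 and 8.53 in the WT QSC pools, a 4.93-fold rise (2.3 ± 0.17, adjusted p = 0.000139). Cdk4, its relative, measured 12.5, 12.62 and 12.64 in the WT CSC pools, against 11.55, 11.63 and 11.75 in the WT QSC pools (0.94 ± 0.12, adjusted p = 0.00164). E2f2, a factor that turns on S phase genes, measured 9.36, 8.98 and 8.88 in the WT CSC pools, against 7.47, 6.99 and 7.64 in the WT QSC pools (1.7 ± 0.2, adjusted p = 0.000875). Both kinases and E2f2 were higher in every WT CSC pool than in any WT QSC pool, as the rule for naming them required. Rbl1, or p107, rose by 1.28 ± 0.13 and Ccng1, a p53 target, by 1.16 ± 0.15. The 5 that fell were Ccnd2, Cdkn1b, Gas1, E2f5 and Tfdp2. Ccnd2, cyclin D2, measured 8.15, 8.15 and 8.09 in the WT CSC pools, against 8.72, 8.52 and 8.91 in the WT QSC pools (-0.58 ± 0.14, adjusted p = 0.0205), and missed the threshold in the 3 fits that left out a WT CSC pool (0.0599, 0.0757 and 0.0871 for pool 1, 2 and 3). Cdkn1b, or p27, an inhibitor that quiescent cells carry, measured 9.68, 9.72 and 9.65 in the WT CSC pools, against 10.23, 10.28 and 9.96 in the WT QSC pools (-0.48 ± 0.13, adjusted p = 0.0384). It missed the threshold in 5 of the 6 fits, those that left out WT QSC pool 1 (0.0809), WT QSC pool 2 (0.0743), WT CSC pool 1 (0.1), pool 2 (0.113) and pool 3 (0.137). Of the whole list 1 gene fell without WT QSC pool 1 and 0 without any 1 WT CSC pool. Cdkn1c, or p57, varied widely, at 10.2, 10.45 and 10.15 in the WT CSC pools, against 10.7, 9.9 and 11.48 in the WT QSC pools (adjusted p = 0.419).

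**Figure D3:**
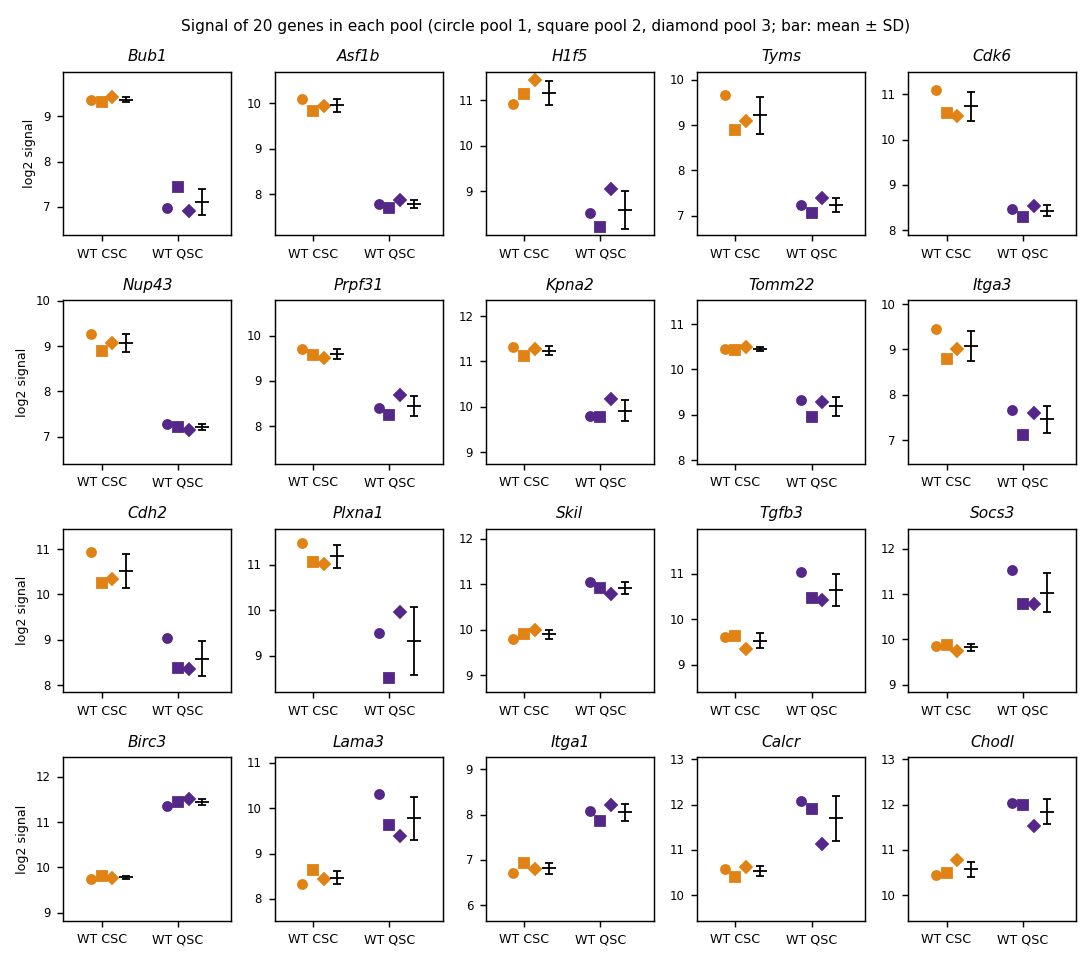
Log2 signal of 20 genes in each pool, WT CSC (orange) left of WT QSC (purple), with the mean ± SD over 3 pools; every panel spans the same range of log2 units. The genes were taken from those whose 3 WT CSC pools and 3 WT QSC pools do not overlap. Plxna1 shows the widest spread among WT QSC pools.

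Genes of the nuclear pore and of the core splicing machinery rose, and none of those whose products select splice sites did. Of 42 nuclear pore and transport genes 20 rose and 1 fell (median 0.57; 13 higher without WT CSC pool 2). The rises included 12 of 24 nucleoporins and 7 of 17 transport receptors. Nup43, of the ring that also serves kinetochores, measured 9.27, 8.88 and 9.07 in the WT CSC pools, against 7.28, 7.21 and 7.14 in the WT QSC pools (1.86 ± 0.14, adjusted p = 0.000133). Kpna2, an importin alpha, measured 11.31, 11.13 and 11.27 in the WT CSC pools, against 9.79, 9.78 and 10.18 in the WT QSC pools (1.32 ± 0.15, adjusted p = 0.000723). Nup107 rose by 1.05 ± 0.14 and Nup37 by 1.17 ± 0.14, both of the same ring as Nup43. Nup98, a nucleoporin of the central channel, fell by 0.57 (adjusted p = 0.0317). It missed the threshold in the fits that left out WT QSC pool 1 (0.0732), WT QSC pool 2 (0.0592), WT CSC pool 1 (0.107), pool 2 (0.0862) and pool 3 (0.0887).

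Of 35 core spliceosome genes 18 rose and 1 fell, with 34 of 35 differences above 0 (median 0.58). The number that rose was 10, 11 and 9 without WT CSC pool 1, 2 and 3. Prpf31, of the U4/U6 particle, measured 9.71, 9.58 and 9.5 in the WT CSC pools, against 8.41, 8.24 and 8.69 in the WT QSC pools (1.15 ± 0.15, adjusted p = 0.00154). Sf3a3 of U2 rose by 0.99 ± 0.13, and the Sm proteins Snrpd3 and Snrpd2 by 0.83 ± 0.13 and 0.76 ± 0.13. Prpf8, the centre of the spliceosome, did not pass (0.16 ± 0.17, adjusted p = 0.57). Sf3b1, a U2 subunit, was the one that fell (-0.55, adjusted p = 0.0373). It missed the threshold in the fits that left out WT QSC pool 1 (0.0648), WT QSC pool 2 (0.0784), WT CSC pool 1 (0.119), pool 2 (0.0789) and pool 3 (0.0837). Among 32 SR proteins, hnRNPs and CLK kinases, which choose splice sites or steer those that do, 0 rose and 3 fell (median -0.08). Tra2b, a splice enhancer protein, measured 12.08, 12.33 and 12.35 in the WT CSC pools, against 12.19, 12.42 and 12.37 in the WT QSC pools (adjusted p = 0.751). The 3 that fell were the kinases Clk1 (-0.96) and Clk4 (-0.84), which phosphorylate SR proteins, and the helicase Ddx5 (-0.39). Clk1 missed the threshold without WT CSC pool 1 (adjusted p = 0.0653). Clk4 missed it in the fits that left out WT QSC pool 2 (0.0516), WT CSC pool 1 (0.0871) and WT CSC pool 3 (0.0653), and Ddx5 in all 6 fits (0.0611 to 0.173). In mRNA decay 3 of 36 rose (0 without any 1 WT CSC pool) and 3 fell, 8.33% each way, near or under the 10.6% and 7.36% of all genes. The fallen were Btg2, Zfp36l1 and Zfp36, or tristetraprolin, which sends cytokine RNAs to decay, at 11.49, 11.44 and 11.3 in the WT CSC pools, against 12.72, 12.62 and 12.4 in the WT QSC pools (-1.17 ± 0.14, adjusted p = 0.000851). All 3 are immediate early genes too.

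Genes of protein synthesis and folding rose at some stages more often than at others. Chaperonin and prefoldin genes, which fold tubulin and actin, gave 8 higher and 0 lower of 21, with 4 of 8 chaperonin subunits and 1 of 6 prefoldin subunits. The 8 became 4 without WT QSC pool 1 and 2, 2 and 3 without WT CSC pool 1, 2 and 3. Tbca, a tubulin folding cofactor, rose by 0.81 ± 0.13 (adjusted p = 0.00424). Aminoacyl-tRNA synthetases, which load tRNAs, gave 13 higher and 0 lower of 33 (5, 4 and 4 without WT CSC pool 1, 2 and 3), among them Kars for lysine (1 ± 0.16) and the mitochondrial Sars2 for serine (0.86 ± 0.16). In the translocon and N-glycosylation list 6 of 33 rose, and 3 without WT QSC pool 2 and 2, 1 and 1 without WT CSC pool 1, 2 and 3. Of 26 chaperones and unfolded protein response genes of the endoplasmic reticulum Sdf2l1, Creld2 and Derl2 rose and Ddit3 fell, none of them in each fit without 1 pool. Of 38 vesicle coat and Golgi genes Ap1m1 and Ap2m1 rose and 0 fell, and neither rose in each fit. Of 33 autophagy genes Bnip3 rose, in each fit, and Map1lc3a fell. The shares of these last 3 lists lie near or under the 10.6% and 7.36% of all genes. Translation initiation factors gave 9 higher and 0 lower of 48 (3, 2 and 2 without WT CSC pool 1, 2 and 3), with Eif2b5, of the exchange factor for eIF2, at 0.97 ± 0.19. Hspa5, the BiP chaperone, measured 13.27, 13.66 and 13.63 in the WT CSC pools, against 13.65, 13.73 and 13.78 in the WT QSC pools (adjusted p = 0.386), and Sqstm1, or p62, an autophagy receptor, measured 12.92, 13.05 and 13.17 in the WT CSC pools, against 13.37, 13.47 and 13.24 in the WT QSC pools (adjusted p = 0.14). Neither passed, and for Hspa5 the pools of the 2 groups overlapped.

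The proteasome degrades ubiquitin-tagged proteins, and genes of each of its parts rose. Of 31 genes 22 rose and every difference was above 0 (median 0.77; 14 without WT CSC pool 3). The rises covered 5 of 7 alpha and 6 of 7 beta subunits of the 20S core, 5 of 6 ATPases and 6 of 11 other subunits of the 19S cap. In a fit without 1 pool the beta subunits that rose were as few as 1, and 2 with WT CSC pools 2 and 3 as 1 sample. Psmc1, one of the ATPases, measured 10.19, 9.99 and 10.09 in the WT CSC pools, against 8.95, 8.72 and 9.37 in the WT QSC pools (1.08 ± 0.17, adjusted p = 0.00417). Psma2 of the core measured 9.94, 9.72 and 9.75 in the WT CSC pools, against 8.76, 8.8 and 9.08 in the WT QSC pools (0.93 ± 0.14, adjusted p = 0.00305). The deubiquitinase Usp14, which sits on the cap, rose by 0.72 ± 0.13 (adjusted p = 0.00782).

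Mitochondrial genes were higher at the level of import, translation and respiration. Of 27 genes of mitochondrial protein import 14 rose and 0 fell (median 0.65), and 11 rose in each fit without 1 pool. Tomm22, the receptor of the outer membrane pore, measured 10.44, 10.42 and 10.49 in the WT CSC pools, against 9.32, 8.95 and 9.29 in the WT QSC pools (1.26 ± 0.14, adjusted p = 0.000687). Tomm5, a small subunit of the same pore, measured 9.38, 9.66 and 9.79 in the WT CSC pools, against 8.28, 8.2 and 8.56 in the WT QSC pools (1.26 ± 0.16, adjusted p = 0.00128). Timm17a of the inner membrane rose by 0.9 ± 0.14. The WT CSC pools of both Tomm genes lay clear of every WT QSC pool, as the rule for naming them required.

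Genes of the mitochondrial ribosome rose, while those of the cytosolic ribosome stayed near the median of all genes. Of 48 large subunit genes of the mitochondrial ribosome 34 rose (median 0.77), and of 29 small subunit genes 15 (median 0.61), with 0 lower in both. Without WT CSC pool 3 the 49 in all became 31. Of 55 cytosolic ribosomal protein genes 1 rose and 0 fell (median -0.03). Each respiratory complex contributed: 19 of 35 genes of complex I rose, 3 of 4 of complex II, 7 of 9 of complex III, 4 of 9 of complex IV and 8 of 15 of ATP synthase, with 0 lower in all 5. Their sum of 41 became 26 and 23 without WT CSC pool 1 and 3, and in a fit without 1 pool complex I had as few as 8, complex III 4 and ATP synthase 4. Sdhd, an anchor of complex II, measured 10.62, 9.96 and 10.19 in the WT CSC pools, against 8.74, 8.7 and 9.02 in the WT QSC pools (1.44 ± 0.18, adjusted p = 0.00138). Mature fibre markers had means of 8.51 to 8.97 in WT CSC, against 7.55 to 8.59 in WT QSC, and their part was not tested.

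**Figure D4:**
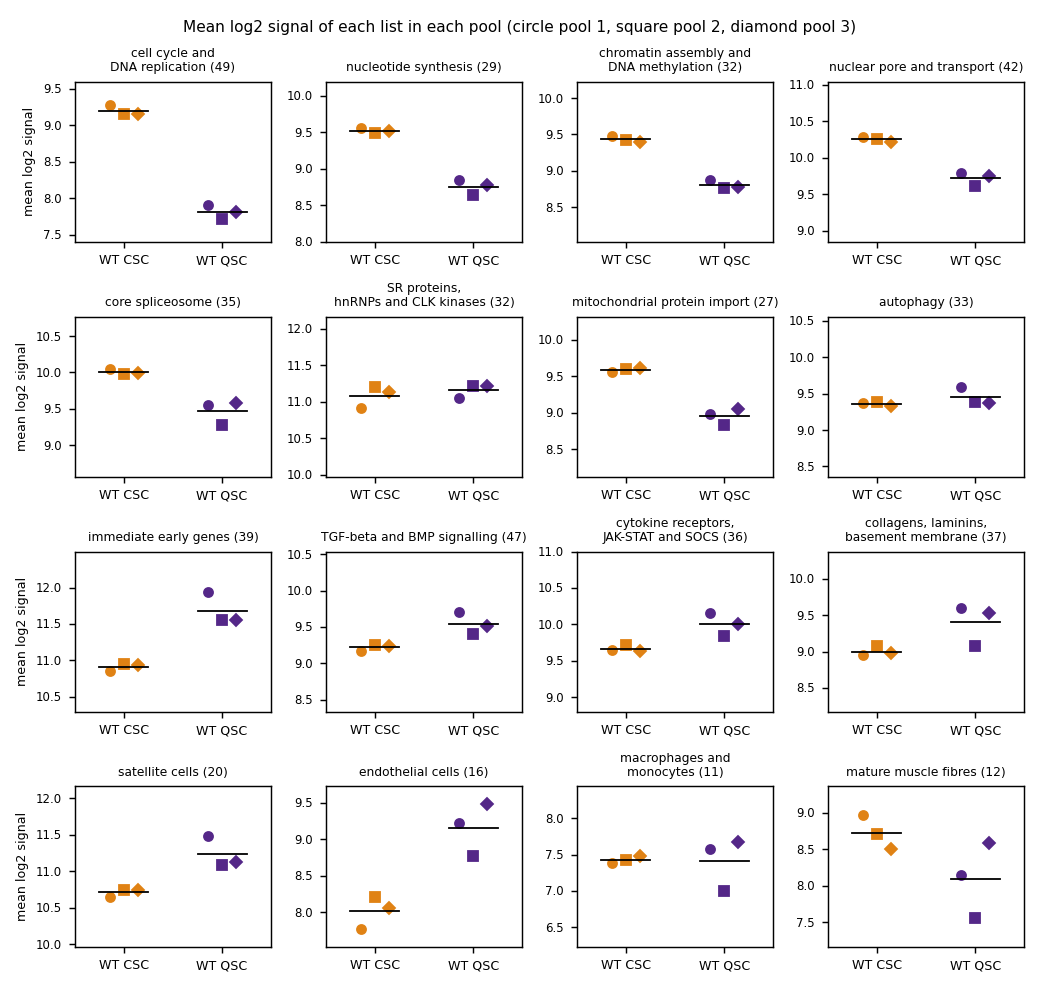
Mean log2 signal of 16 lists in each pool, WT CSC (orange) left of WT QSC (purple), with the number of genes in brackets and the mean of 3 pools as a bar; every panel spans the same range of log2 units. Cell cycle, nucleotide, chromatin, nuclear pore, spliceosome and import lists lie higher in WT CSC without overlap, satellite and endothelial markers lower without overlap, and the splice factor, autophagy, macrophage and mature fibre lists overlap. WT QSC pool 2 lies nearest to WT CSC in the collagen and endothelial lists.

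Other metabolism was mixed. Of 24 fatty acid oxidation genes 5 rose and 1 fell, and 2, 1, 2 and 1 rose without WT QSC pool 2 or WT CSC pool 1, 2 or 3. Lpl, the lipase that takes up fatty acids from lipoproteins, fell, at 9.71, 9.95 and 9.69 in the WT CSC pools, against 11.23, 10.94 and 10.94 in the WT QSC pools (-1.25 ± 0.14, adjusted p = 0.000781). Cpt2, which carries fatty acids into mitochondria, rose by 0.96 ± 0.16. The 5 that rose were Cpt2, Acads, Hadhb, Acaa2 and Etfb. In sterol and fatty acid synthesis Me1, the malic enzyme, rose by 1.43 ± 0.13, in each fit, and Msmo1, Insig1 and Scd1 fell, none in each fit (10 fell without WT QSC pool 3). In glycolysis 10 of 24 rose and 0 fell. Eno3, the muscle enolase, showed the largest difference of all genes that passed (12.1-fold), at 12.05, 11.83 and 12.14 in the WT CSC pools, against 8.65, 8.1 and 8.49 in the WT QSC pools (3.59 ± 0.17, adjusted p = 3.53e-05). Of 257 solute carriers 24 rose (9.34%; 12 without WT QSC pool 2 and 8, 8 and 9 without WT CSC pool 1, 2 and 3) and 16 fell (6.23%; 6, 5 and 4 without WT CSC pool 1, 2 and 3), shares close to those over all genes. Slc25a24, a mitochondrial carrier of ATP and phosphate, measured 10.06, 9.77 and 10.07 in the WT CSC pools, against 8.98, 7.97 and 7.69 in the WT QSC pools (1.75 ± 0.29, adjusted p = 0.00485). Slc2a12, a glucose carrier, measured 8.82, 8.56 and 8.66 in the WT CSC pools, against 10.31, 10.16 and 9.4 in the WT QSC pools (-1.27 ± 0.22, adjusted p = 0.00589), and the cationic amino acid carrier Slc7a2 fell by 0.94. In the iron and haem list 6 of 26 rose (3 without WT CSC pool 1 or 3), with Glrx5, of iron-sulphur cluster assembly, at 1.37 ± 0.18, and the transferrin receptor Tfrc at 0.84 ± 0.15. Among peroxide defence genes 6 of 25 rose (3 without WT CSC pool 2), with Gpx1 at 1.03 ± 0.15 and Prdx3 at 0.99 ± 0.13, and 1 fell. This was the thioredoxin inhibitor Txnip, at 10.32, 10.38 and 9.97 in the WT CSC pools, against 11.61, 11.74 and 11.22 in the WT QSC pools (-1.3 ± 0.18, adjusted p = 0.00187).

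Signalling genes that passed were mostly lower. TGF-beta is known to restrain satellite cells. In TGF-beta and BMP signalling 13 of 47 fell and 1 rose (median -0.23). The 13 became 8 without WT QSC pool 1 and 7, 7 and 8 without WT CSC pool 1, 2 and 3. Tgfb3, a ligand, measured 9.61, 9.64 and 9.34 in the WT CSC pools, against 11.04, 10.46 and 10.42 in the WT QSC pools (-1.11 ± 0.19, adjusted p = 0.00483). Tgfbr3, or betaglycan, a co-receptor, measured 11, 10.88 and 10.99 in the WT CSC pools, against 12.33, 11.77 and 11.71 in the WT QSC pools (-0.98 ± 0.18, adjusted p = 0.00648). Skil, or SnoN, an inhibitor inside the pathway that the pathway itself induces, measured 9.8, 9.91 and 9.99 in the WT CSC pools, against 11.04, 10.92 and 10.78 in the WT QSC pools (-1.01 ± 0.13, adjusted p = 0.00143). Ligand, co-receptor and inhibitor were lower in every WT CSC pool than in any WT QSC pool, as the rule for naming them required. Bmp6 fell by 0.82 (adjusted p = 0.00508), Gdf11 was the one that rose, and Bmpr2, a receptor, did not pass (-0.33 ± 0.14, adjusted p = 0.137).

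Cytokine receptors and JAK-STAT genes gave 10 lower of 36 and 1 higher, Il13ra1 (median -0.34). The 10 became 6 without WT QSC pool 1 and 5, 6 and 3 without WT CSC pool 1, 2 and 3. Socs3, a feedback inhibitor induced by STAT3, measured 9.86, 9.88 and 9.74 in the WT CSC pools, against 11.53, 10.78 and 10.78 in the WT QSC pools (-1.21 ± 0.2, adjusted p = 0.00504). Cish, its relative, measured 7.67, 7.65 and 7.64 in the WT CSC pools, against 9.33, 8.37 and 8.65 in the WT QSC pools (-1.13 ± 0.22, adjusted p = 0.00972). Stat3 itself, at a high level, did not pass (12.06, 12.14 and 12.13 in the WT CSC pools, against 12.55, 12.3 and 12.47 in the WT QSC pools; -0.33 ± 0.13, adjusted p = 0.105). Of 33 genes of MAP kinase feedback 7 fell and 1 rose, with 4, 4 and 3 lower without WT CSC pool 1, 2 and 3. The phosphatase Dusp8 fell by 1.21 and the kinase Map3k8 by 1.11, and Etv4, a transcription factor downstream of growth factors, rose by 1.01 ± 0.15.

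Fewer Notch and Wnt genes passed. Notch signalling holds satellite cells in quiescence, and 6 of its 31 genes fell (1 without any 1 WT CSC pool). The 6 were Hes1, Heyl, Rbpj, Maml2, Psen2 and Dll4, that is 2 target genes, 2 nuclear partners, a protease subunit and a ligand. Hes6, which opposes Hes1 and promotes myogenic differentiation, was the one that rose, and measured 10.29, 9.92 and 9.87 in the WT CSC pools, against 8.29, 7.99 and 8.63 in the WT QSC pools (1.72 ± 0.19, adjusted p = 0.000687). Dll4, a ligand that endothelial cells also make, measured 7.02, 7.24 and 7.11 in the WT CSC pools, against 8.36, 7.66 and 8.23 in the WT QSC pools (-0.96 ± 0.19, adjusted p = 0.00966). Notch2, a receptor of satellite cells, did not pass (-0.4 ± 0.18, adjusted p = 0.164). In Wnt signalling Fzd4, Lgr4, Sfrp4, Sfrp5 and Ror1 of 53 fell (9.43%, and 2, 1 and 2 genes without WT CSC pool 1, 2 and 3). Wnt7b, Fzd3 and Lrp4 rose (1 without WT QSC pool 1 or 3 or WT CSC pool 1 or 2, and 0 without WT CSC pool 3). With 5.66% higher, both Wnt shares lie near or under the 7.36% lower and 10.6% higher of all genes. Lgr4, an R-spondin receptor, fell by 0.74 (adjusted p = 0.00602), and Lrp6 did not pass (-0.38 ± 0.15, adjusted p = 0.121).

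Receptor tyrosine kinases moved both ways. Of 28, Met, Erbb3, Axl and Ddr2 rose (14.3%) and 6 fell (21.4%), against 10.6% and 7.36% of all genes. Met, the receptor of hepatocyte growth factor, which satellite cells carry, measured 10.94, 10.63 and 10.84 in the WT CSC pools, against 9.93, 10.11 and 10 in the WT QSC pools (0.79 ± 0.13, adjusted p = 0.00499). Erbb3, a neuregulin receptor, measured 9.02, 8.34 and 8.25 in the WT CSC pools, against 7.48, 7.07 and 7.37 in the WT QSC pools (1.23 ± 0.21, adjusted p = 0.00562). Kdr, the VEGF receptor of endothelial cells, measured 6.93, 7.26 and 6.89 in the WT CSC pools, against 8.48, 7.82 and 8.56 in the WT QSC pools (-1.26 ± 0.21, adjusted p = 0.00459). Flt1 and Tek fell by 1.17 and 1.15, and with Kdr and Tie1 they make 4 of the 6 that fell, all 4 in the endothelial marker list. The other 2 were Mertk and Egfr. The 4 that rose became 2 without any 1 WT CSC pool, and the 6 that fell became 12 without WT QSC pool 2 and 3 without WT CSC pool 1 or 3. Of 39 G protein-coupled receptors 9 fell and 1 rose, with 5, 4 and 5 lower without WT CSC pool 1, 2 and 3. They included Adgrl4 (-1.66 ± 0.15) and S1pr1 (-0.96 ± 0.15), which endothelial cells express, beside a mean of endothelial markers of 7.77 to 8.21 in WT CSC, against 8.77 to 9.48 in WT QSC, whose part was not tested. Lpar3 was the one that rose. Among 49 guidance genes Plxna1, Sema7a and Sema3e rose (6.12%, and 1 gene without WT CSC pool 1 or 3) and 6 fell (12.2%). Of these 3 fell without WT QSC pool 1 and 1, 2 and 0 without WT CSC pool 1, 2 and 3. Plxna1, a semaphorin receptor, measured 11.49, 11.06 and 11.02 in the WT CSC pools, against 9.51, 8.5 and 9.96 in the WT QSC pools (1.87 ± 0.32, adjusted p = 0.00566).

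Apoptosis genes moved both ways. Of 30 apoptosis regulators 7 rose (4 without any 1 WT CSC pool) and 6 fell. Bak1, which permeabilises mitochondria, measured 9.73, 9 and 9.11 in the WT CSC pools, against 8.47, 7.56 and 8.09 in the WT QSC pools (1.24 ± 0.26, adjusted p = 0.0123), and Casp6, a caspase, measured 8.75, 8.41 and 8.54 in the WT CSC pools, against 7.78, 7.53 and 7.56 in the WT QSC pools (0.95 ± 0.14, adjusted p = 0.00293). On the other side Birc3, an inhibitor of apoptosis that NF-kB induces, measured 9.75, 9.82 and 9.77 in the WT CSC pools, against 11.36, 11.45 and 11.5 in the WT QSC pools (-1.66 ± 0.12, adjusted p = 0.000133). The groups did not overlap for Birc3, as the rule for naming it required. Mcl1, a survival protein with short-lived RNA, fell by 0.74 (adjusted p = 0.0101), and Fas, a death receptor, by 1.15 (adjusted p = 0.0106).

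Matrix and adhesion genes fell more often than they rose, with named exceptions. In the list of collagens, laminins and basement membrane, the niche of the satellite cell, 9 of 37 fell and Col8a1 rose (median -0.43). The 9 became 4 without WT QSC pool 1 or 3, 21 without WT QSC pool 2, and 1, 2 and 1 without WT CSC pool 1, 2 and 3. Lama3, a laminin chain, measured 8.33, 8.63 and 8.45 in the WT CSC pools, against 10.31, 9.63 and 9.39 in the WT QSC pools (-1.31 ± 0.22, adjusted p = 0.00523). Sparc, a collagen-binding protein, did not pass (-0.4 ± 0.13, adjusted p = 0.0602). Markers of fibro-adipogenic progenitors, which make much of this matrix, had means of 8.97 to 9.34 in WT CSC, against 9.6 to 9.92 in WT QSC. The tendon markers Fmod (-1.54 ± 0.3) and Thbs4 (-1.42 ± 0.23), both matrix proteins, fell as well. Among matrix enzymes and inhibitors 13 of 37 fell (4, 7 and 7 without WT CSC pool 1, 2 and 3) and 4 rose. The share that rose, 10.8%, lies near the 10.6% of all genes, while 35.1% fell, against 7.36%. Timp1 and Timp4, inhibitors of the same proteases, moved in opposite directions. Timp1 measured 11.08, 11.34 and 11.46 in the WT CSC pools, against 9.86, 10.01 and 10.26 in the WT QSC pools (1.25 ± 0.16, adjusted p = 0.00129), and Timp4 measured 7.93, 7.08 and 7.42 in the WT CSC pools, against 9.6, 8.47 and 8.86 in the WT QSC pools (-1.51 ± 0.3, adjusted p = 0.01). Adam19 rose by 1.33 ± 0.22 and Adam8 by 1.24 ± 0.18, and Adamts7 made up the 4, while Adamts20 fell by 1.26 and Adamts9 by 0.91.

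Of 22 integrins, which tie cells to laminin and collagen, Itga3 rose (4.55%) and 4 fell (18.2%), against 10.6% and 7.36% of all genes. The 4 became 2 without any 1 pool other than WT QSC pool 2. In the list of 35 integrin and focal adhesion genes Itga3, Parvb, Actn1 and Vasp rose (2 without WT CSC pool 1). Their share of 11.4% lies near the 10.6% of all genes. Itga1, Itga8, Itga9, Itgb5 and Lims2 fell (14.3%, against 7.36% of all genes). These became 3 without WT QSC pool 1 or 3, and 3, 3 and 2 without WT CSC pool 1, 2 and 3. Itga3, an alpha chain for laminin, measured 9.44, 8.78 and 9 in the WT CSC pools, against 7.67, 7.12 and 7.6 in the WT QSC pools (1.61 ± 0.21, adjusted p = 0.00143). Itga1, an alpha chain for collagen, measured 6.71, 6.94 and 6.79 in the WT CSC pools, against 8.08, 7.85 and 8.21 in the WT QSC pools (-1.23 ± 0.14, adjusted p = 0.000838). Itga8 fell by 1.27 (adjusted p = 0.00508). Itga7, the laminin chain that marks satellite cells, measured 11.2, 11.68 and 11.39 in the WT CSC pools, against 11.15, 10.53 and 11.12 in the WT QSC pools and did not pass (0.49 ± 0.2, adjusted p = 0.128). Parvb, or beta-parvin, which links integrins to actin, rose by 2.14 ± 0.19 (adjusted p = 0.000288). Of 35 cadherins and protocadherins 13 fell and 1 rose (median -0.51), and the 13 became 8 without WT QSC pool 1, 21 without WT QSC pool 3, and 3, 1 and 1 without WT CSC pool 1, 2 and 3. Cdh2, or N-cadherin, which joins satellite cells to fibres and myoblasts to each other, was the one that rose, at 10.94, 10.25 and 10.34 in the WT CSC pools, against 9.04, 8.37 and 8.35 in the WT QSC pools (1.92 ± 0.24, adjusted p = 0.00124). Cdh5, of endothelial junctions, measured 8.59, 9.44 and 9.06 in the WT CSC pools, against 10.84, 10.23 and 10.99 in the WT QSC pools (-1.65 ± 0.25, adjusted p = 0.00322). Protocadherin genes gave 9 of the 13 falls, and many of them share exons, so that their probesets may not be independent.

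Among genes that bind actin, Tmsb10, a thymosin that binds actin monomers, measured 12.59, 11.89 and 11.88 in the WT CSC pools, against 10.69, 9.7 and 10.62 in the WT QSC pools (1.78 ± 0.29, adjusted p = 0.00401). Tpm1, a tropomyosin, measured 10.98, 10.82 and 10.9 in the WT CSC pools, against 9.05, 8.72 and 9.52 in the WT QSC pools (1.8 ± 0.2, adjusted p = 0.000614), and Pfn1, or profilin, measured 13.22, 12.77 and 12.78 in the WT CSC pools, against 12.14, 11.68 and 12.07 in the WT QSC pools (0.95 ± 0.18, adjusted p = 0.00786). S100a10, as bright as Pfn1, did not pass (0.12 ± 0.14, adjusted p = 0.607).

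Genes of later myogenesis rose. In myogenic commitment and fusion 11 of 32 rose, all 11 in each fit without 1 pool, and Mef2c and Mylk fell, neither in each fit. Myof, or myoferlin, of membrane fusion, measured 10.9, 10.44 and 10.51 in the WT CSC pools, against 7.98, 7.3 and 7.71 in the WT QSC pools (2.96 ± 0.2, adjusted p = 0.000105). Myh3, the embryonic myosin, measured 8.69, 8.32 and 8.24 in the WT CSC pools, against 6.75, 5.99 and 6.73 in the WT QSC pools (1.92 ± 0.22, adjusted p = 0.000838), and Tnni1, a slow troponin, measured 9.07, 8.91 and 8.48 in the WT CSC pools, against 7.27, 7.02 and 7.2 in the WT QSC pools (1.65 ± 0.17, adjusted p = 0.000483). The acetylcholine receptor subunits Chrna1 (1.26), Chrnd (1.69) and Chrng (1.95) were also among the 11. Myod1, the master factor of commitment, measured 12.03, 12.5 and 12.51 in the WT CSC pools, against 12.32, 11.5 and 12.28 in the WT QSC pools and did not pass (0.31 ± 0.24, adjusted p = 0.412). Of 12 mature fibre markers 5 were higher, among them Actn3 at 1.38 ± 0.24 and Neb at 1.52 ± 0.33, and 7 did not pass. Their means overlapped between the groups, and their part was not tested. Ckm, a fibre enzyme and their defining marker, lay at 8.22, 8.48 and 8.44 in the WT CSC pools, against 8.64, 7.67 and 8.98 in the WT QSC pools (adjusted p = 0.94).

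Of 20 satellite cell markers 8 fell and 0 rose (median -0.55), and 4, 3 and 3 fell without WT CSC pool 1, 2 and 3. Chodl, a lectin of quiescent satellite cells, measured 10.45, 10.49 and 10.77 in the WT CSC pools, against 12.03, 11.99 and 11.52 in the WT QSC pools (-1.28 ± 0.17, adjusted p = 0.00175). Calcr, the calcitonin receptor that holds quiescence, measured 10.58, 10.41 and 10.63 in the WT CSC pools, against 12.07, 11.9 and 11.14 in the WT QSC pools (-1.17 ± 0.23, adjusted p = 0.00924). Pax7, with the values given above, differed by -1.07 ± 0.25 (adjusted p = 0.0183), and missed the threshold in the fits that left out WT CSC pool 2 (0.0673) and pool 3 (0.0741). Pax3 fell by 0.62 (adjusted p = 0.0106), and missed it without WT CSC pool 2 (0.0615). Several markers by which satellite cells are recognised did not pass. Vcam1, a surface protein used in sorting, measured 11.84, 12.21 and 12.15 in the WT CSC pools, against 12.41, 12.53 and 12.45 in the WT QSC pools (adjusted p = 0.0812). Cdh15, or M-cadherin, measured 11.22, 11.2 and 10.97 in the WT CSC pools, against 11.5, 10.98 and 11.33 in the WT QSC pools (adjusted p = 0.602). Des, or desmin, measured 12.5, 12.79 and 12.77 in the WT CSC pools, against 12.57, 12.41 and 12.69 in the WT QSC pools (adjusted p = 0.57). These 3 differed by -0.40, -0.14 and 0.13.

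Of 39 immediate early genes 26 fell and 0 rose (median -0.91; 22 with WT CSC pools 2 and 3 as 1 sample). Egr1, a zinc finger factor, measured 12.64, 12.72 and 12.72 in the WT CSC pools, against 13.48, 13.26 and 13.27 in the WT QSC pools (-0.64 ± 0.13, adjusted p = 0.00971). Atf3 measured 11.98, 11.62 and 11.6 in the WT CSC pools, against 13.27, 12.97 and 12.43 in the WT QSC pools (-1.16 ± 0.22, adjusted p = 0.00776). Btg2, which slows division, measured 11.46, 11.32 and 11.29 in the WT CSC pools, against 13.01, 12.85 and 12.48 in the WT QSC pools (-1.42 ± 0.16, adjusted p = 0.000693). All 3 were lower in every WT CSC pool than in any WT QSC pool, as the rule for naming them required. Of 28 heat shock genes 10 fell, Bag1 and Fkbp4 rose, and 16 did not pass (median -0.15). The 2 rises became 1 without WT QSC pool 2 or 3 or WT CSC pool 1, and 0 without WT CSC pool 2 or 3. The 10 became 5 without WT QSC pool 1 and 6, 4 and 4 without WT CSC pool 1, 2 and 3. Dnajb1, a co-chaperone, measured 11.56, 11.69 and 11.9 in the WT CSC pools, against 13.02, 13.09 and 12.77 in the WT QSC pools (-1.24 ± 0.15, adjusted p = 0.000947), and Hsph1 measured 12.01, 11.93 and 12.1 in the WT CSC pools, against 12.89, 13.08 and 12.69 in the WT QSC pools (-0.87 ± 0.14, adjusted p = 0.00407). Hspa8, the constitutive chaperone, did not pass (-0.2 ± 0.12, adjusted p = 0.318).

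Letters known from early response and heat shock control were counted in the same way as those above. The cyclic AMP response element (CRE), searched as TGACGTCA on both strands, stood in 8.7% of windows of immediate early genes (4 of 46), against 2.85% of all windows. It also stood in 10.7% of windows of kinetochore genes (3 of 28). The AP-1 letters, searched as TGAGTCA on both strands, stood in 2.17% of windows of immediate early genes (1 of 46), against 3.92% of all windows. Shares that rest on so few windows are imprecise. The heat shock unit, searched as GAANNTTC on both strands, stood in 37.5% of windows of heat shock genes, against 5.79%. Over all lower genes the shares of CRE and heat shock unit were 4.09% and 7.58%, and over all higher genes 2.74% and 5.35%. The windows of Btg2 (chr1:134079106-134079405, minus strand), with the CRE in capitals, and Hsph1 (chr5:149636287-149636586, minus strand), with the heat shock unit in capitals, are from RefSeq (GRCm38.p6):
Btg2: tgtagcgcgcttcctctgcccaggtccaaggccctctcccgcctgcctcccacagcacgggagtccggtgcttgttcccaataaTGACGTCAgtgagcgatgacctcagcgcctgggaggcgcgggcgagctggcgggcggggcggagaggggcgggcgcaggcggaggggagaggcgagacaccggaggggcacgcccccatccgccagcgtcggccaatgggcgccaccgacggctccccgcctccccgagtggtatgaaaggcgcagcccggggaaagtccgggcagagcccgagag
Hsph1: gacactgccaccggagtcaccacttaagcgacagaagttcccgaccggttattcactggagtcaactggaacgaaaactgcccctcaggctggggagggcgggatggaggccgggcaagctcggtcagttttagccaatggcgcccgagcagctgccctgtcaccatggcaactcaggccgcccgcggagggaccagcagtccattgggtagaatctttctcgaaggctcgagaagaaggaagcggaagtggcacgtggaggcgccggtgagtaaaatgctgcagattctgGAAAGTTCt

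Secreted signals fell too. Of 44 chemokines and cytokines 12 fell (7 without WT CSC pool 2). Il33, Il34, Csf1, Vegfb and Pdgfb rose (2 without WT QSC pool 1, 3 without WT QSC pool 2, and 1 without any 1 WT CSC pool). The share that rose, 11.4%, lies near the 10.6% of all genes, while 27.3% fell, against 7.36%. Igf1, a growth factor, measured 8.29, 8.36 and 8.04 in the WT CSC pools, against 9.86, 9.84 and 9.21 in the WT QSC pools (-1.41 ± 0.19, adjusted p = 0.00201). Ccl2, which attracts monocytes, measured 9.72, 9.9 and 9.92 in the WT CSC pools, against 11.02, 11.07 and 11.31 in the WT QSC pools (-1.29 ± 0.14, adjusted p = 0.00054). Il33, an alarmin, was at 9.26, 8.42 and 8.43 in the WT CSC pools, against 7.44, 7.84 and 7.59 in the WT QSC pools (1.08 ± 0.23, adjusted p = 0.014). The groups did not overlap for any of the 3, as the rule for naming them required. Of 13 MHC genes 6 fell and 0 rose, and 3, 3 and 2 fell without WT CSC pool 1, 2 and 3. MHC genes are near copies of each other, and H2-Q5 (-0.88 ± 0.17) and H2-K2 (-1.17 ± 0.17) may share signal with their relatives. Irf1, which drives MHC class I genes, measured 9.73, 9.94 and 9.74 in the WT CSC pools, against 11, 10.9 and 10.6 in the WT QSC pools (-1.03 ± 0.15, adjusted p = 0.00241). Of 32 guanylate binding and interferon-induced genes 9 fell and 0 rose (5, 4 and 4 fell without WT CSC pool 1, 2 and 3), with Gbp5, a guanylate binding protein, at 6.79, 6.41 and 6.49 in the WT CSC pools, against 7.59, 7.81 and 7.66 in the WT QSC pools (-1.12 ± 0.14, adjusted p = 0.00142). In the clock list Per1, Per3, Rora, Nfil3 and Bhlhe40 of 19 fell and Ciart rose (9 fell without WT QSC pool 2, and 3 without WT CSC pool 1 or 3).

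Among wider families, channels and transporters held single large differences. Kcnn4, a calcium-activated potassium channel, measured 9.73, 9.25 and 9.56 in the WT CSC pools, against 7.07, 6.79 and 7.08 in the WT QSC pools (2.54 ± 0.16, adjusted p = 9.94e-05), among 56 potassium channels of which 2 rose and 4 fell. The channel shares of 3.57% higher and 7.14% lower lie under the 10.6% and 7.36% of all genes. Leaving out 1 pool gave 1 rise, or 2 without WT QSC pool 2, and gave 2 falls without WT CSC pool 2 or 3. Of 36 calcium and sodium channels Cacng1, a subunit of the muscle calcium channel, rose by 1.31 ± 0.23, and 6 fell (3 without WT QSC pool 1 and 2, 2 and 1 without WT CSC pool 1, 2 and 3). Of 34 ABC transporters 9 fell (4 without WT CSC pool 2 or 3) and 0 rose. Abca8a, a lipid transporter, measured 9.5, 9.26 and 9.66 in the WT CSC pools, against 11.19, 10.96 and 10.28 in the WT QSC pools (-1.34 ± 0.23, adjusted p = 0.00529). Cytochrome P450 genes gave 6 lower of 27 and 0 higher, and the 6 became 3 without WT QSC pool 1 or 2, 10 without WT QSC pool 3, and 1, 1 and 0 without WT CSC pool 1, 2 and 3.

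Of 41 limb patterning factors Pbx3, Six4 and Eya3 rose (1 without WT QSC pool 2 or 3 or any 1 WT CSC pool). Dach1 and Meox2 fell, in each fit without 1 pool. The shares of 7.32% higher and 4.88% lower lie under the 10.6% and 7.36% of all genes. Meox2, a homeobox factor, measured 6.62, 6.57 and 6.5 in the WT CSC pools, against 8.34, 7.73 and 7.72 in the WT QSC pools (-1.37 ± 0.18, adjusted p = 0.0016). Hoxb2 was the one that fell of 27 genes of the Hox clusters, and Klf7 the one of 14 Kruppel-like factors, with 0 higher in both, and neither fell in each fit. Their lower shares of 3.7% and 7.14% lie under the 7.36% of all genes. Of 19 Sox factors Sox12 rose and Sox17, Sox5 and Sox7 fell (15.8%), and the falls became 0, 0 and 1 without WT CSC pool 1, 2 and 3. The rise was lost without WT QSC pool 2 or any 1 WT CSC pool. Of 32 forkhead factors Foxm1 rose, in each fit without 1 pool, and 3 fell (9.38%), with 0 and 1 falls without WT CSC pool 2 and 3. The forkhead share that fell lies near the 7.36% of all genes, and the share that rose (3.13%) under the 10.6%. Of 252 zinc finger genes tested 11 rose (4.37%) and 8 fell (3.17%), under the shares of all genes. Those that rose became 2, 4 and 5, and those that fell 4, 3 and 2, without WT CSC pool 1, 2 and 3, while 5 fell without WT QSC pool 1 and 15 without WT QSC pool 3. Of 112 olfactory receptors tested 0 rose and 1 fell.

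Genes with a microRNA symbol that passed were all lower, and most sat in 1 place. Of 139 tested, which include the host transcripts Mir100hg, Mir17hg and Mir99ahg, 23 fell and 0 rose. The 23 became 13 and 14 without WT QSC pool 1 and 3, and 11, 9 and 3 without WT CSC pool 1, 2 and 3. The imprinted cluster on chromosome 12, between 109571990 and 109743496 (GRCm38.p6, RefSeq hairpins), held 31 of the 114 with a RefSeq hairpin, and the other genes have no position here. In it 19 fell and all 31 differences were below 0 (median -0.71). Among the 108 genes placed outside it or with no position 4 fell (median -0.14), which were Mir29a, Mir212, Mir143 and Mir145a, and Mir143 and Mir145a have no position. Genes of the cluster are made from long shared transcripts, so that they are not independent of each other. The array does not tell mature microRNA from its precursor. Mir376b measured 6.22, 6.71 and 6.23 in the WT CSC pools, against 7.69, 7.29 and 7.71 in the WT QSC pools (-1.18 ± 0.18, adjusted p = 0.00342), and Mir382 measured 8.09, 8.82 and 8.77 in the WT CSC pools, against 9.76, 9.42 and 9.5 in the WT QSC pools (-1 ± 0.21, adjusted p = 0.012). These 2 passed in each fit without 1 pool. Their mature sequences (RefSeq, seed bases 2 to 8 in capitals) are shown because of the 23 only these 2 did so:
mmu-miR-376b-3p: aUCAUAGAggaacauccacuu
mmu-miR-376b-5p: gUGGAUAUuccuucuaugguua
mmu-miR-382-5p: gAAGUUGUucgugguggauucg
mmu-miR-382-3p: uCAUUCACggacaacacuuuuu

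No 2 of these 4 share a seed. Rian, a long noncoding RNA of the same cluster, measured 8.33, 8.01 and 8.38 in the WT CSC pools, against 9, 10.1 and 9.39 in the WT QSC pools (-1.25 ± 0.26, adjusted p = 0.0113). Of 26 imprinted genes Rian, Zim1, Plagl1, Sgce and Airn fell, and 8 fell without WT QSC pool 2 and 3 without WT CSC pool 2. Mest, the one that rose, measured 11.47, 11.17 and 11.31 in the WT CSC pools, against 10.5, 9.43 and 10.17 in the WT QSC pools (1.28 ± 0.25, adjusted p = 0.0088), and Zim1, a zinc finger gene, measured 9.54, 9.22 and 8.93 in the WT CSC pools, against 10.7, 10.56 and 10.27 in the WT QSC pools (-1.28 ± 0.19, adjusted p = 0.00255). Among 374 long noncoding RNA genes 1 rose (0.267%) and 14 fell (3.74%), against 11.2% higher and 7.4% lower of 13262 protein-coding genes.

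**Figure D5:**
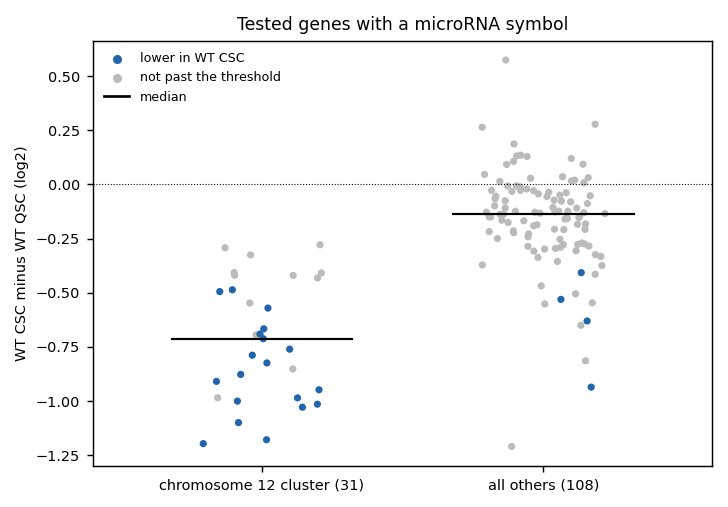
Difference (WT CSC minus WT QSC, log2) of the 139 tested genes with a microRNA symbol, 31 in the chromosome 12 cluster and 108 others (placed outside it or with no position), with medians as bars and the genes lower in WT CSC in blue. All points of the cluster lie below 0.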

How the data were processed

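Mouse satellite cells sorted by YFP were measured on Affymetrix Mouse Gene 1.0 ST arrays, 1 array a sample. The authors deposited log2 probeset signals. Per the submitters' processing notes, RMA was run in Affymetrix Expression Console, with no version or genome build given in the sources used. Which arrays were normalised together is likewise not stated there. The platform table pairs 21789 of the 35556 probesets with 1 gene symbol and 1621 with several, and does not list 12146, so that 19938 genes were named. The brightest probeset stood for each of the 999 genes with several. Arrays of 1 pool were averaged. Genes under the 30th percentile of mean signal (log2 6.45) were left out, and 13956 were tested with limma 3.58.1 in R 4.3.3, as 8 group means over all 12 pools, with Benjamini-Hochberg adjustment at 0.05. The 6 other groups hold 1 pool each and add no residual degree of freedom: the 4 residual ones come from the WT pools, and with the prior they sum to 9.01. Pools are biological replicates, per the labels.

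On data simulated for this comparison, with 13956 genes, the fit recovered 96% of genes changed by 1 on the log2 scale and 100% of those changed by 2 or 3, and 4.99% of its calls were false. The simulated pools were independent, with normal noise at the fitted spread, few genes changed and none by less than 1. In the data 2510 genes passed, many changes were smaller and WT CSC pools 2 and 3 were much alike. The rates therefore hold for the simulated setting and not for the data. The genes, lists and families described were chosen with earlier results of these data known. Genes named with a value of each pool came from a rule: per list or family and direction, up to 4 genes with the smallest p among those that passed in each fit without 1 pool and under both other normalisations and whose pools did not overlap, up to 2 of the brightest members of a list that did not pass, the brightest genes that passed over all lists, and a panel of markers and cyclin genes. Alternatives were the normalisation, the filter, the probeset rule, the variance model, the treatment of arrays of a pool, each pool left out, a fit of the WT pools alone and a block for the replicate number. Centring pools on the tested genes and treating WT CSC pools 2 and 3 as 1 sample were added after the data were seen. Promoter and microRNA sequences are from RefSeq (GRCm38.p6).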

Additional observations from a re-analysis of the deposited data

How the results depend on the processing

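Against 2510 genes past the threshold, 1483 higher and 1027 lower, 18 of 57 counts over all genes moved by more than 1.5 times. With every array as a replicate they were 5794, 2971 and 2823, which counts technical arrays as samples. Lower genes numbered 1641 when the pool was a random block and 1826 when pools were centred on the tested genes. With WT CSC pools 2 and 3 as 1 sample the counts were 1230, 856 and 374, from fewer samples. Fits without 1 pool gave 1194 to 2620 genes, 846 to 1471 higher and 348 to 1208 lower; the smallest counts came without WT CSC pool 3.

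The replicate block gave 2796 genes. Deviations of WT CSC and WT QSC pools of the same number correlated at 0.319, -0.033 and -0.034 for number 1, 2 and 3. Those of different numbers correlated at -0.306 to 0.317. With 3 pools a group these values cannot tell whether the numbers pair the pools.

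The rule for named genes asks in part that a gene passes under these alternatives, so that their calls say nothing on stability. Socs3 missed it with the mean of its probesets (adjusted p = 0.063), and Lgr4 and Mir376b missed it with the pool as a random block (0.121 and 0.0774). Cdkn1b missed it with arrays centred on medians (0.0649) and with a trended, robust variance (0.0565). With WT CSC pools 2 and 3 as 1 sample Cdkn1b, Ccnd2 and Pax7 missed it (0.12, 0.0788 and 0.0728). Neither Ckm nor Tra2b passed, and their signs turned. Ckm differed by 0.027 with every array as a replicate, and by -0.42 to 0.23 in the fits without 1 pool; Tra2b by -0.14 to 0.012 in those fits. The cause was not tested. For the 6500 genes with intervals beyond 0.5 on at least 1 side, a change of that size cannot be set aside at 3 pools a group.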
